A study of Mus musculus with 45 samples.

Results

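The cytochrome P450 family 2 genes outside the Cyp2b subfamily and Cyp2r1 were examined in liver, kidney and brain of male C57BL/6 mice. They were chosen by symbol alone, as every gene of the array table named Cyp2 followed by a subfamily letter and a number, without the 5 Cyp2b genes and Cyp2r1. This gave 38 of 22080 genes in 11 subfamilies, among them 13 Cyp2c, 9 Cyp2d, 6 Cyp2j and 3 Cyp2a genes, with 1 gene each for Cyp2e, Cyp2f, Cyp2g, Cyp2s, Cyp2t, Cyp2u and Cyp2w. All 45 arrays were Affymetrix Mouse Gene ST v1.0, 3 for each of 15 groups of tissue and diet. The mice were 7 weeks old, 8 per diet group, and received the AIN-93 control diet (Control), that diet with 0.5% cholesterol (HCD), or HCD with 1.0% of a hydroalcoholic extract of the mushroom Ganoderma lucidum grown without (HCD+Gl-1) or with (HCD+Gl-2) acetylsalicylic acid in the substrate, or HCD with 0.03 g/100 g of the cholesterol-lowering drug simvastatin (HCD+Sim). No mouse carried a transgene, and all were deprived of food and water before sacrifice on day 43. RNA came from tissue and no sorting of cells is described, so that fewer cells of a type and less RNA per cell cannot be told apart. How the tissues were dissected is not given in the sources used here.

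Cytochrome P450 enzymes are haem proteins of the endoplasmic reticulum that add an oxygen atom to their substrate, using electrons passed on by P450 oxidoreductase (Por) or cytochrome b5. Family 2 is the largest P450 family of mammals, and in mice many of its genes lie in clusters of close copies. Its enzymes handle drugs, plant compounds and small toxicants, and several Cyp2c and Cyp2j enzymes convert arachidonic acid to epoxides, which epoxide hydrolases open. The liver is the main site of drug oxidation, and the nuclear receptors CAR (Nr1i3) and PXR (Nr1i2) raise many P450 genes there.

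All 38 genes matched a mouse gene in RefSeq, 1 of them (Cyp2c44) through an older symbol. They lay on 6 chromosomes: the 13 Cyp2c genes on chromosome 19, the 9 Cyp2d genes on 15, the 6 Cyp2j genes on 4, 8 genes including all Cyp2a genes on 7, Cyp2u1 on 3 and Cyp2w1 on 5. Cyp2c38 lies inside the RefSeq span of Cyp2c39 on the opposite strand, counted from the first promoter listed for Cyp2c39. A second Cyp2c39 promoter lies beyond the start of Cyp2c38, and a span counted from there would not hold Cyp2c38. The array table holds 1 probe set for each of the 38 genes. How far its probes take up RNA of a near-identical copy is not given in the sources used here, so values of neighbouring Cyp2c, Cyp2d and Cyp2j genes are uncertain to that extent.

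RefSeq promoters (build GRCm38.p6) were found for 30 of the 38 genes. The 250 bases before the start of Cyp2c38 and Cyp2a22, the genes that passed both the fold and the p threshold between diets in liver, are printed 5′ to 3′ on the gene's own strand, each with the close copy it is compared with below. Cyp2c39 and Cyp2a12 were added as these copies after their values were seen. For Cyp2c39 the first of the promoters listed is shown. Capitals mark TATAAA, the core of a TATA box, or AGGTCA, a half-site that nuclear receptors can bind.
Cyp2c38 (chr19:39463076-39463325, minus strand): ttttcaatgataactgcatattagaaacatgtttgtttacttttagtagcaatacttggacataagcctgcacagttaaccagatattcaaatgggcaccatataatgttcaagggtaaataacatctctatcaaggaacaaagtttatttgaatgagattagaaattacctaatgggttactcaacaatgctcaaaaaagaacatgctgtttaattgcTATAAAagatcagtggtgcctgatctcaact
Cyp2c39 (chr19:39347096-39347345, plus strand): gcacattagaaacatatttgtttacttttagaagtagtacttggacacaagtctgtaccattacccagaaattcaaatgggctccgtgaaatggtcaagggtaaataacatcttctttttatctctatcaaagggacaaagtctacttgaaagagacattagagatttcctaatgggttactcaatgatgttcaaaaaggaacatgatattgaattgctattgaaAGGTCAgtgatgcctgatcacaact
Cyp2a22 (chr7:26939387-26939636, minus strand): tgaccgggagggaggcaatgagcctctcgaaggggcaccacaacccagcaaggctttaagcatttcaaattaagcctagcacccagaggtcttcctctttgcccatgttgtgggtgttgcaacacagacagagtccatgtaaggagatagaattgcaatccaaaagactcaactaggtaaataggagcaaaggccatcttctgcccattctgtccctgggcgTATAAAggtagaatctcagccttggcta
Cyp2a12 (chr7:27028840-27029089, plus strand): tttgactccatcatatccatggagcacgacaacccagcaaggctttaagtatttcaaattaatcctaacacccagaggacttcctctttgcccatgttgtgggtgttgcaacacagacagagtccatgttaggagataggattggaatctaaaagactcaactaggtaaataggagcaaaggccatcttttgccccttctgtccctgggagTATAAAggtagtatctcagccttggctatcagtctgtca

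The promoters of Cyp2c38 and Cyp2c39 were identical at 201 of 235 aligned bases (85.5%; a second promoter listed for Cyp2c39, not shown, at 198 of 221), and those of Cyp2a22 and Cyp2a12 at 213 of 232 (91.8%). Over all genes searched, on both strands, TATAAA was in the promoter of 17 of the 30 genes against 12.4% of all 32851 mouse promoters of this length. AGGTCA was in 6 of 30 against 14%, TTGCNNAA, the core to which C/EBP factors bind, in 4 of 30 against 9.56%, and CAAAGTCCA, a core bound by the liver factor HNF4, in 4 of 30 against 0.384%. The 4 genes with CAAAGTCCA were Cyp2c65, Cyp2c67, Cyp2c68 and Cyp2c70. Cyp2c39 has AGGTCA and no TATAAA in the stretch shown, while the other 3 stretches have TATAAA and no AGGTCA. The 250 bases of the second promoter listed for Cyp2c39 have neither, so this contrast depends on the promoter shown. They end in ttaattgctat, bases that in Cyp2c38 run on into TATAAA, so they do not settle whether the second promoter has it. These matches of letters do not show that a factor binds.

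The values are on a log2 scale and are compared only within a gene, since the level of one probe set cannot be set against that of another. Array medians lay between 6.76 and 6.92, and 2 arrays of a group correlated between 0.9846 and 0.9974. The arrays of a group are named A, B and C. Per the study's methods, 4 mice of a group went into pool A and the rest into pool B, while pool C combined A with B, so that each group rests on only 2 separate pools and p-values measure only the spread between these arrays. For the 38 genes, array C lay between A and B in 146 of 570 combinations of gene and group (25.6%), where 3 values in random order would give 33.3%, and it lay outside both by over 0.7 for Cyp2c38 in liver Control and for Cyp2a22 and Cyp2c65 in liver HCD+Sim. Liver arrays A and B of Control also stood above C and all HCD arrays in the summed level of 12 squamous epithelium genes (10.17 and 10.68 against 9.56 for C and 9.42 to 9.51 in HCD). Liver arrays A and B of HCD+Sim stood above C in 13 exocrine pancreas genes (11.31 and 11.85 against 10.13) and in 12 skeletal muscle genes (11.27 and 11.72 against 10.24), which were also higher in Control (10.61 to 10.86) than in HCD (10.14 to 10.37). The part of these in the results below was not tested, and results are also given with pools A and B only. The 9 measured hepatocyte genes were all higher in liver than in kidney and brain on Control, the 10 proximal tubule genes all higher in kidney than in liver and brain, and the 10 brain genes all higher in brain than in liver, so the tissue labels held. Of the 38 genes, 29 had a mean above the 30th percentile of all genes in liver, 19 in kidney and 12 in brain. Cyp2a22, Cyp2c65, Cyp2d11, Cyp2g1, Cyp2j12 and Cyp2t4 passed it in no tissue. The percentile was at 5.95 in liver, 5.88 in kidney and 5.88 in brain. Where a mean lies under it, the probe set gave low signal, and the size of a difference from that group depends on how low the probe set can read.

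On the Control diet most of the Cyp2 genes were highest in liver. The highest mean was in liver for 30 of 38 genes, in kidney for 7 and in brain for Cyp2j12 alone. A gene counted as differentially expressed (DE) when limma gave it an adjusted p of at most 0.05 and a log2 difference beyond 0.7 in either direction. The leading tissue was DE over the next one for 22 of the 30 liver genes, for 5 of the 7 kidney genes and for Cyp2j12. The other 8 liver genes (Cyp2c65, Cyp2c66, Cyp2d34, Cyp2e1, Cyp2g1, Cyp2j6, Cyp2t4 and Cyp2w1) and the kidney genes Cyp2a5 and Cyp2j9 were not DE over the neighbouring tissue in that order. This does not show that the tissues are alike for them. With the adjusted p alone, 35 of the 38 genes differed between liver and kidney, against 48.4% of all genes. Among these, Cyp2a5 missed the fold threshold narrowly (liver minus kidney -0.699).

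**Figure D1:**
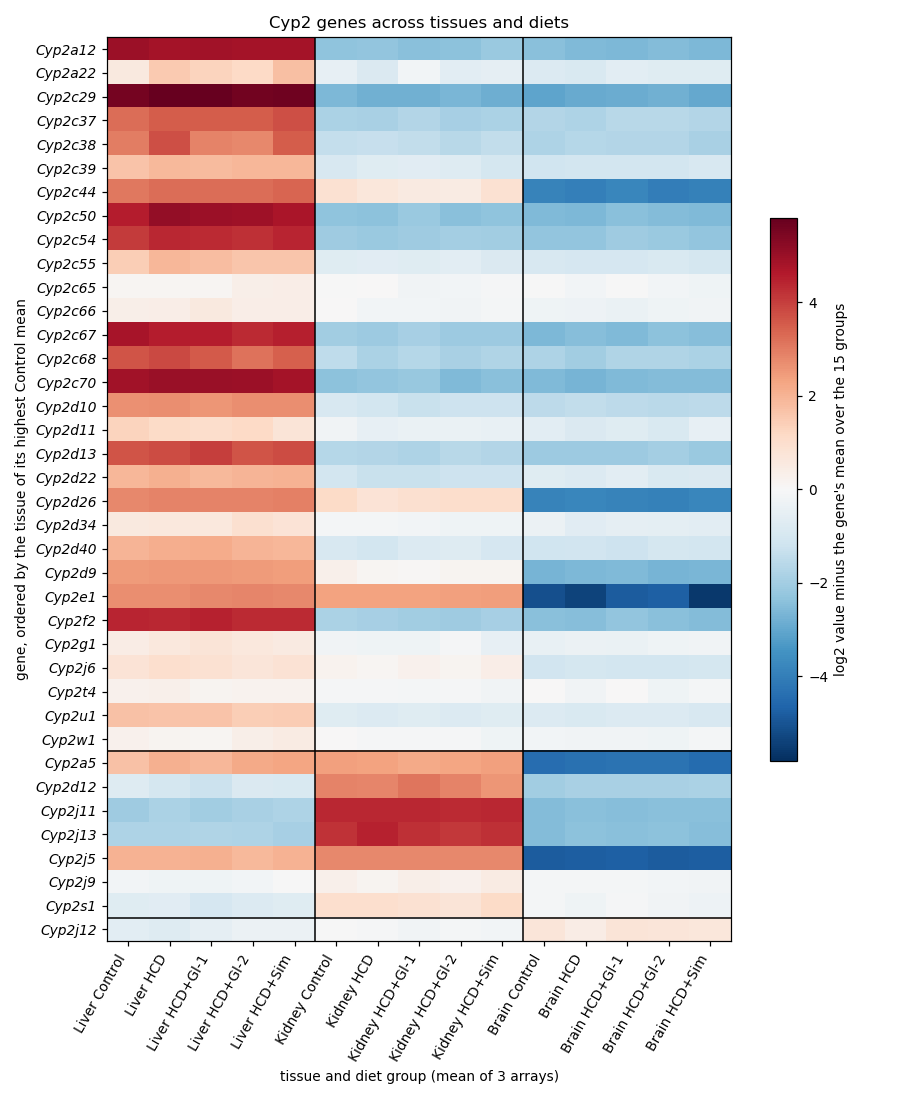
Mean log2 value of each of the 38 Cyp2 genes (rows) in the 15 tissue and diet groups (columns, 3 arrays each), shown as colour after subtracting the gene's own mean over the 15 groups. The 30 genes in the upper block have their highest Control mean in liver, the next 7 in kidney and Cyp2j12 in brain.

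Between liver and kidney, 27 of 38 genes were DE, 22 higher in liver and 5 higher in kidney. Of all genes 16.8% were DE, 6.78% higher in liver and 10.1% higher in kidney. The median difference of the 38 was 1.91 on the log2 scale, and that of all genes 0.06. Cyp2c29, a liver epoxygenase gene, had liver values of 12.57, 12.55 and 12.61 and kidney values of 4.45, 4.45 and 4.29 on arrays A, B and C. This is a difference of 8.18 (SE 0.10, adjusted p = 7.59e-40). Large measured differences were also those of Cyp2a12, a steroid hydroxylase gene, with 7.29 (SE 0.11), of Cyp2c70, whose enzyme makes the muricholic acids of mouse bile, with 7.24 (SE 0.09), and of Cyp2c50 with 6.89 (SE 0.13) and Cyp2c67 with 6.82 (SE 0.12). No array of one tissue reached the range of the other for any of these. The kidney means of all 5 genes (4.28 to 5.10) were under the 30th percentile, so their sizes and order are not exact and no order is read from them. All 13 Cyp2c genes had the higher mean in liver and 11 were DE. Of the 9 Cyp2d genes 7 were DE higher in liver and Cyp2d12 alone was lower.

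Against brain, 31 of the 38 were DE from liver, 30 higher in liver and Cyp2j12 lower, with 32.7% of all genes DE, 15.5% higher and 17.2% lower in liver. The 5 largest as measured were those of Cyp2c29 (8.61, SE 0.10), Cyp2e1 (7.79, SE 0.15), Cyp2c70 (7.42, SE 0.09), Cyp2a12 (7.40, SE 0.11) and Cyp2c67 (7.38, SE 0.12). The brain means of these genes (3.96 to 5.48) were all under the 30th percentile, and no order is read here either. Cyp2e1 encodes the ethanol-oxidising P450. Its probe set read 13.26 ± 0.03 (SD, n = 3) in liver and 12.92 ± 0.03 in kidney, which differed by 0.34 (SE 0.15, adjusted p = 0.0536), and 5.48 ± 0.25 in brain. The SE takes the same spread in all tissues, and over all diets Cyp2e1 spread most in brain (pooled SD 0.330, against 0.0578 in liver and 0.0334 in kidney). This p-value thus does not show that liver and kidney are alike. Between kidney and brain 12 of 38 genes were DE, 11 of them higher in kidney and Cyp2j12 lower, against 30% of all genes, 15.7% higher and 14.2% lower. The 5 largest of these as measured were those of Cyp2j5 (7.63), Cyp2e1 (7.44), Cyp2j11 (6.92), Cyp2a5 (6.82) and Cyp2j13 (6.71), with SE from 0.09 to 0.15, again with all 5 brain means (4.17 to 5.48) under the percentile. Cyp2a5 encodes the coumarin hydroxylase. With the adjusted p alone, 20 genes differed between kidney and brain, against 59.1% of all genes.

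The 5 genes that were DE higher in kidney than in liver were Cyp2j11, Cyp2j13, Cyp2d12, Cyp2s1 and Cyp2j5. Cyp2j11 read 11.12, 10.99 and 11.25 on the kidney Control arrays A, B and C, 4.61, 4.71 and 4.65 on those of liver, and 4.21, 4.21 and 4.18 on those of brain. Its liver and brain arrays all lay more than 6 log2 units below the kidney ones, and liver minus kidney was -6.46 (SE 0.12, adjusted p = 1.64e-34). Cyp2j13 read 10.81, 10.96 and 10.88 in kidney and 4.90, 5.09 and 4.78 in liver, a difference of -5.96 (SE 0.10, adjusted p = 2.62e-36). Cyp2d12 read 9.11, 9.02 and 9.06 in kidney and 5.39, 5.06 and 5.80 in liver, a difference of -3.65 (SE 0.15, adjusted p = 3.86e-23). All 3 stood apart from the other tissues on every array. Their liver means (4.66 to 5.42) and brain means (4.15 to 4.2) were under the 30th percentile, so that the size of these differences is not exact. Cyp2s1, an extrahepatic P450 that the dioxin receptor can raise, differed by -1.69 (SE 0.11, adjusted p = 2.46e-16) from liver, and its brain mean of 7.80 also lay above the liver mean of 7.21. Cyp2j5, whose enzyme epoxidises arachidonic acid, was well above brain in both organs. It read 12.65 ± 0.05 (SD, n = 3) in kidney, 11.88 ± 0.05 in liver and 5.03 ± 0.16 in brain, and liver minus kidney was -0.77 (SE 0.09, adjusted p = 3.52e-09).

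**Figure D2:**
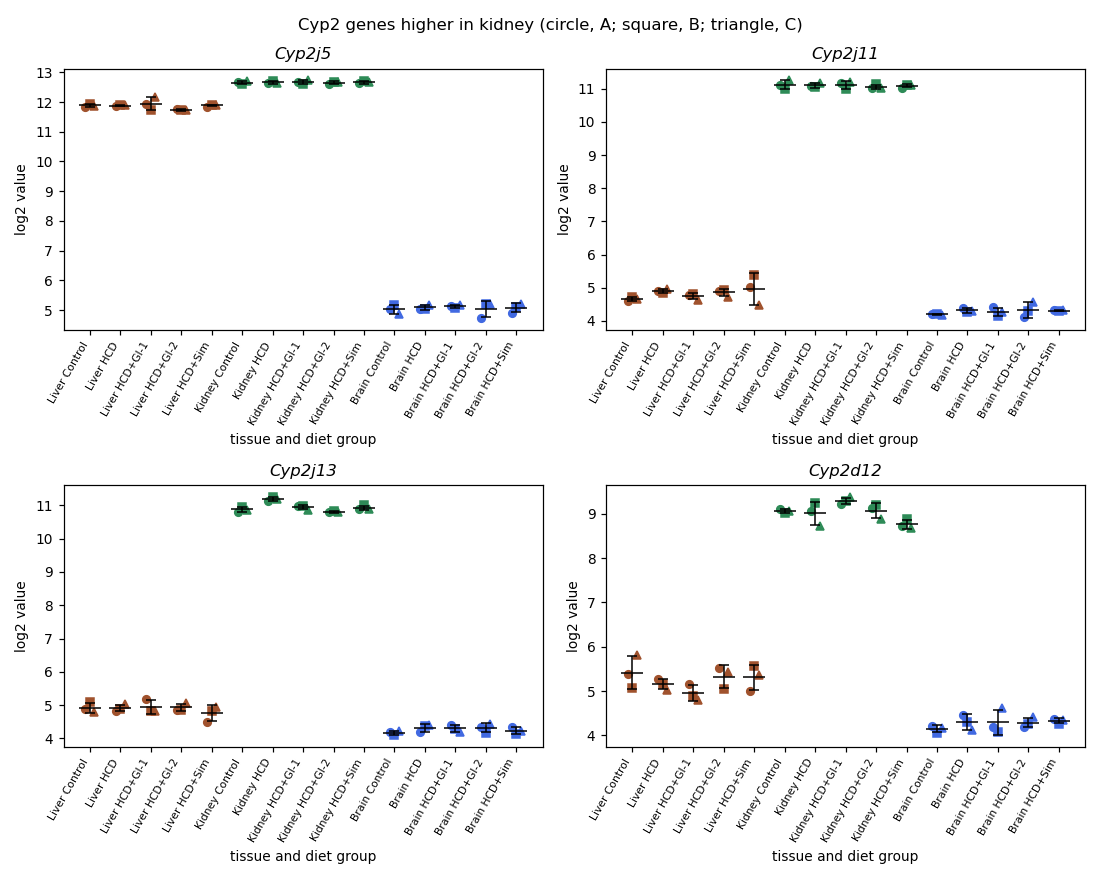
Log2 values of Cyp2j5, Cyp2j11, Cyp2j13 and Cyp2d12 on all 45 arrays by tissue and diet group, with the mean and SD of 3 arrays as a bar. Kidney arrays lie above all liver and brain arrays in each panel, and the liver arrays of Cyp2j11, Cyp2j13 and Cyp2d12 all lie under 5.95, the 30th percentile of liver, while those of Cyp2j5 do not.

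The 6 Cyp2j genes, neighbours on chromosome 4, thus had different leading tissues. Cyp2j5, Cyp2j11, Cyp2j13 and Cyp2j9 were highest in kidney, Cyp2j6 in liver and Cyp2j12 in brain. Cyp2j12 read 5.93, 5.80 and 5.80 in brain, 4.94, 5.12 and 5.32 in kidney and 4.40, 4.29 and 4.94 in liver. The brain arrays were above all others. Liver minus brain was -1.3 (SE 0.14, adjusted p = 5.84e-11) and kidney minus brain -0.71 (SE 0.14, adjusted p = 1.79e-05). The latter no longer reached 0.7 in size without kidney Control A (-0.62) or brain Control A (-0.67). Cyp2j9, which is known from brain, read 8.90 ± 0.18 (SD, n = 3) there, against 9.31 ± 0.01 in kidney and 8.84 ± 0.06 in liver, and no pair of tissues was DE. Its kidney values passed the adjusted p alone against brain, as 59.1% of all genes did in that comparison.

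In liver, few of the 38 genes differed with diet. HCD against Control gave 2 DE genes, both higher on HCD, against 0.245% of all genes in either direction and 0.104% higher. These were Cyp2c38, an arachidonic acid epoxygenase gene, and Cyp2a22, a gene of the Cyp2a cluster with little known function. With the adjusted p alone, Cyp2c50 and Cyp2c55 were added, also higher, against 1.34% of all genes. Of the 13 Cyp2c genes 12 had a higher mean on HCD, with a median difference of 0.23, while the 9 Cyp2d genes had a median of 0.04, the 6 Cyp2j genes one of -0.00397, all 38 one of 0.08 and all genes one of -0.01. Each of these 4 genes had its 3 HCD arrays above its 3 Control arrays. The same separation, in either direction, held for 15 of the 38 genes and for 14.9% of all genes.

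Cyp2c38 read 7.86, 8.03 and 7.01 on the liver Control arrays A, B and C and 8.49, 8.54 and 8.24 on those of HCD. Values in HCD+Gl-1 were 7.52, 7.27 and 7.89, in HCD+Gl-2 7.88, 6.92 and 7.61, and in HCD+Sim 8.27, 7.92 and 8.29. All HCD arrays were above all Control, HCD+Gl-1 and HCD+Gl-2 arrays, and the HCD+Sim arrays overlapped those of HCD. Cyp2c38 was higher on HCD than on Control by 0.79 (SE 0.18, adjusted p = 0.0147). It was lower with either extract than on HCD alone, by -0.86 with Gl-1 (SE 0.18, adjusted p = 0.00636) and by -0.95 with Gl-2 (SE 0.18, adjusted p = 0.00194). These comparisons share the HCD arrays and are not independent of each other.

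Cyp2c38 was the only one of the 38 genes called DE with Gl-1, against 0.163% of all genes (0.0679% lower), and the only one with Gl-2, against 0.303% (0.0951% lower). With simvastatin it differed from HCD by -0.26 (95% interval -0.63 to 0.11). Gl-1 and Gl-2 differed from each other by -0.09 (95% interval -0.46 to 0.28), which does not show that they are alike. In comparisons added after values were seen, Cyp2c38 was lower with Gl-2 than with simvastatin by -0.69 (adjusted p = 0.0470), just under the fold threshold, and lower with Gl-1 than with simvastatin by -0.60 (adjusted p = 0.0540). Against Control, Cyp2c38 differed by -0.07 with Gl-1 and by -0.16 with Gl-2.

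The call of Cyp2c38 on HCD leaned on single arrays. Without liver Control C the difference was 0.48 (adjusted p = 0.230), without HCD A 0.76 (adjusted p = 0.0784) and without HCD B 0.74 (adjusted p = 0.0822), and with pools A and B only it was 0.57 (adjusted p = 0.199). With both extracts the fall was larger in pools A and B only, -1.12 with Gl-1 (adjusted p = 0.00455) and -1.11 with Gl-2 (adjusted p = 0.00463). The Gl-2 difference was -0.68 without HCD+Gl-2 B. Liver spread more between arrays than the other tissues. The median SD of a gene was 0.137, against 0.0986 in kidney and 0.111 in brain. For Cyp2c38 itself, liver arrays of a group had a pooled SD of 0.376, kidney arrays one of 0.163 and brain arrays one of 0.106. The main fit takes the same spread in all tissues, so its SE for Cyp2c38 drew on the lower spread outside liver. A fit of the 15 liver arrays alone gave no DE call for any of the 38 genes. The Cyp2c38 values there had adjusted p of 0.340 for HCD, 0.222 for Gl-1 and 0.169 for Gl-2.

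Cyp2c39, in whose span from its first listed promoter Cyp2c38 lies, was not called. It read 6.67, 6.41 and 6.10 on liver Control arrays and 6.68, 6.88 and 6.32 on HCD, which overlapped, with a difference of 0.23 (SE 0.19, adjusted p = 0.761). Its extract differences from HCD were -0.07 and 0.04. The neighbour Cyp2c29 differed by 0.25 on HCD (SE 0.10, adjusted p = 0.357). Whether the differences of Cyp2c38 exceed those of these copies was not tested.

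**Figure D3:**
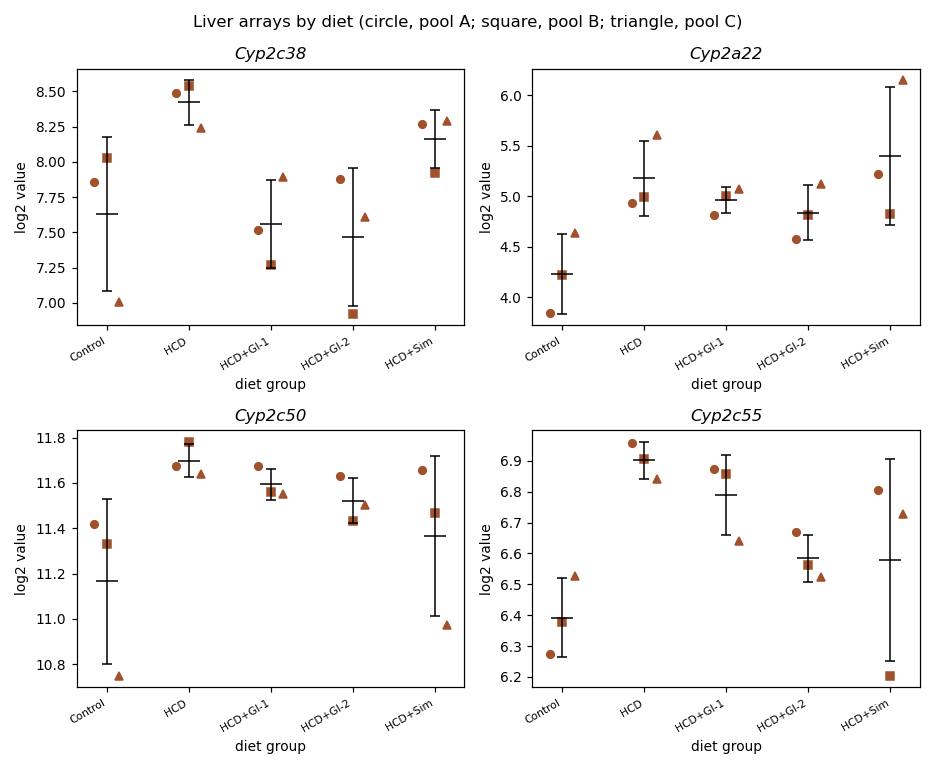
Log2 values of Cyp2c38, Cyp2a22, Cyp2c50 and Cyp2c55 on the 15 liver arrays by diet, with the mean and SD of 3 arrays as a bar and the pool letter as the shape of the point; each panel has its own axis. Cyp2c38 is highest on HCD and lower with both extracts, while the Cyp2a22 mean is above Control in the 4 groups given cholesterol, with 1 HCD+Gl-2 array below the highest Control array.

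Cyp2a22 read 3.84, 4.22 and 4.63 in liver on Control and 4.93, 4.99 and 5.61 on HCD. Its probe set gave low signal in every tissue. The HCD arrays were all above the Control arrays, by 0.95 on average (SE 0.22, adjusted p = 0.0180). Values were 4.82, 5.00 and 5.07 with Gl-1, 4.57, 4.81 and 5.12 with Gl-2, and 5.22, 4.82 and 6.15 with simvastatin. None of these differed from HCD by the test, with -0.21, -0.34 and 0.22. In comparisons added after values were seen, the HCD+Sim group was above Control by 1.16 (adjusted p = 0.00179), the only DE call among the 38 genes there, against 0.358% of all genes, while HCD+Gl-1 differed by 0.73 (adjusted p = 0.0572) and HCD+Gl-2 by 0.60 (adjusted p = 0.166).

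The HCD call of Cyp2a22 was lost without Control A (0.75, adjusted p = 0.157), Control B (0.94, adjusted p = 0.0693) or HCD C (0.73, adjusted p = 0.185), and in the fit of liver arrays alone (adjusted p = 0.253). It was as large in pools A and B only (0.93, adjusted p = 0.00269). Liver arrays of a group had a pooled SD of 0.413 for Cyp2a22, kidney arrays one of 0.277 and brain arrays one of 0.149. The SE of Cyp2a22 in the main fit thus also drew on the lower spread outside liver. Cyp2a12, the copy with the near-identical promoter printed above, read 12.36, 12.32 and 12.48 on Control and 12.21, 12.20 and 12.28 on HCD. Its arrays did not overlap either, in the opposite direction, but the difference of -0.16 was not called (SE 0.11, adjusted p = 0.706).

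Cyp2c50 read 11.42, 11.33 and 10.75 on liver Control arrays and 11.67, 11.78 and 11.64 on HCD. Control C stood well below A and B, and the 2 groups did not overlap. The difference was 0.53 (SE 0.13, adjusted p = 0.0257). Without Control C it was 0.32 (adjusted p = 0.297), and the adjusted p also passed 0.05 without any 1 of the HCD arrays (0.0579 to 0.118). Cyp2c55, a hydroxyeicosatetraenoic acid-forming P450 gene known to respond to CAR and PXR, read 6.27, 6.38 and 6.53 on Control and 6.96, 6.91 and 6.84 on HCD. All HCD arrays were above Control, by 0.51 (SE 0.12, adjusted p = 0.0159), and by 0.61 in pools A and B only (adjusted p = 0.0339). Without Control A it was 0.45 (adjusted p = 0.101), without Control B 0.50 (adjusted p = 0.0674), without HCD A 0.48 (adjusted p = 0.0869) and without HCD B 0.51 (adjusted p = 0.0552). In the fit of liver arrays alone the adjusted p was 0.322 for Cyp2c50 and 0.163 for Cyp2c55.

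**Figure D4:**
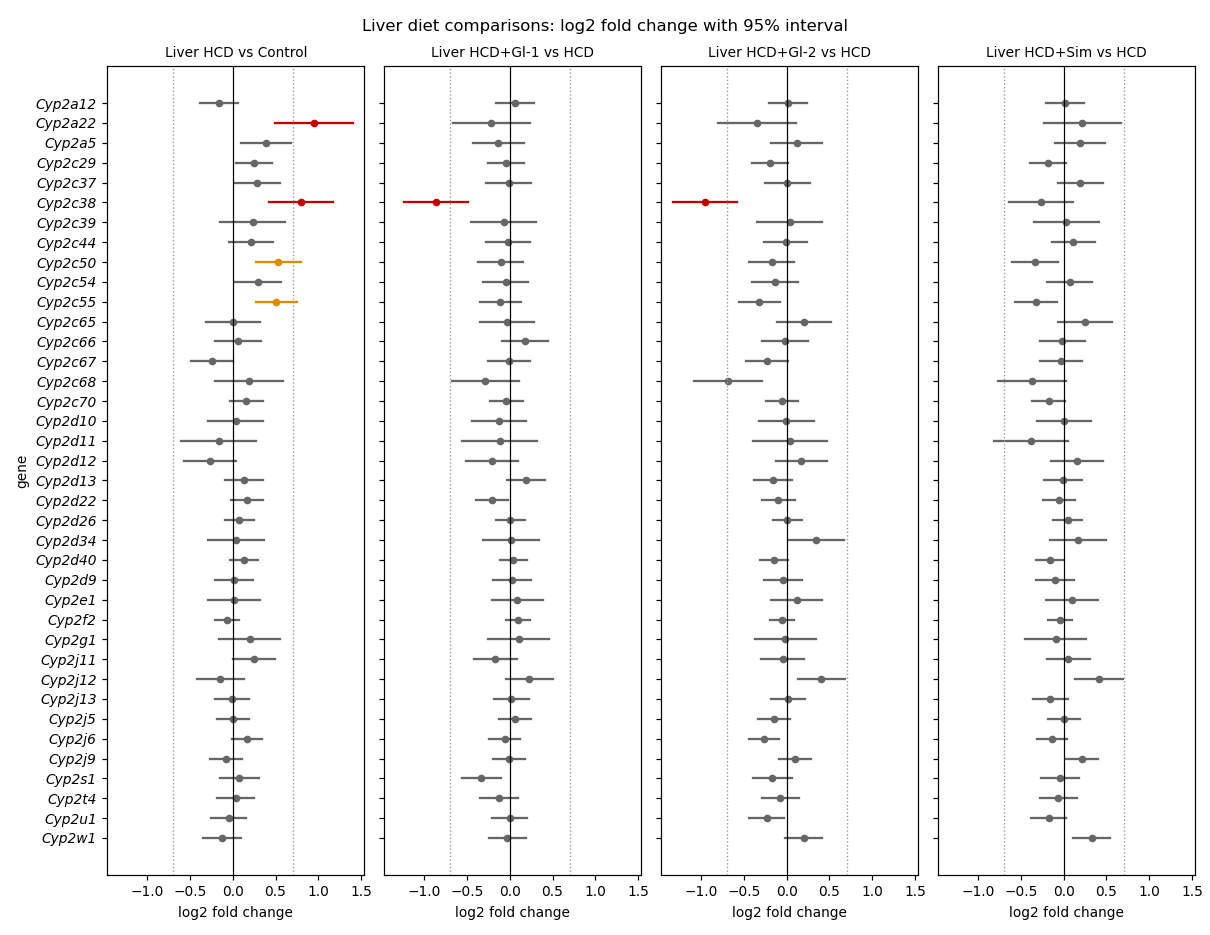
Log2 fold change (point) and 95% interval (line) of the 38 Cyp2 genes in 4 liver comparisons, with dotted lines at -0.7 and 0.7. DE genes are red and genes with an adjusted p of at most 0.05 alone are orange: Cyp2a22 and Cyp2c38 for HCD against Control, and Cyp2c38 again with each extract, are the red points, and none is red with simvastatin.

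The 95% interval lay wholly within 0.7 on either side of 0 for 34 of the 38 genes for HCD against Control (98.5% of all genes), 37 with Gl-1 (98.6%), 35 with Gl-2 (98.3%) and 36 with simvastatin (98.5%). Each share was smaller than that of all genes, and the median SE of the 38 was 0.122, against 0.0995 for all genes. The SE takes the same spread in all tissues while liver arrays spread more, so these intervals can be too narrow for liver. Cyp2c68 read 9.27, 9.19 and 9.55 on HCD and 8.82, 8.11 and 9.01 with Gl-2. These arrays did not overlap, but the difference of -0.69 missed both thresholds (SE 0.19, adjusted p = 0.0618). Without HCD+Gl-2 C it was -0.87 (adjusted p = 0.0316), a fit that leaves out the highest Gl-2 array. Gl-2 B at 8.11 stood well below the other Gl-2 arrays, so the difference leans on B. Simvastatin against HCD called none of the 38 genes, against 0.258% of all genes, and none at the adjusted p alone, against 1.1%. At an unadjusted p under 0.05 there were 5, against 11.7% of all genes, and the lowest adjusted p was that of Cyp2w1 (0.33, SE 0.11, adjusted p = 0.157). Gl-2 against Gl-1 called none either, against 0.172% of all genes, with 10 at an unadjusted p under 0.05, against 19.8%. Nearest was Cyp2d13, which RefSeq lists as a transcribed pseudogene, lower with Gl-2 by -0.35 (SE 0.11, adjusted p = 0.0582).

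An F test over the 5 diet groups, added after values were seen, called none of the 38 genes in kidney, against 1.16% of all genes. It called Cyp2a22, Cyp2a5, Cyp2c38, Cyp2c50 and Cyp2c55 in liver, 5 of 38 genes against 8.7% of all genes. Cyp2a5 read 11.17, 11.08 and 11.24 on Control, 11.55, 11.49 and 11.61 on HCD, 11.64, 11.75 and 11.61 with Gl-2 and 11.76, 11.73 and 11.74 with simvastatin, each group above Control. With Gl-1 it read 11.48, 11.63 and 11.15, overlapping Control. The differences from Control were 0.50 for HCD+Gl-2 (SE 0.15, adjusted p = 0.0478) and 0.58 for HCD+Sim (SE 0.15, adjusted p = 0.0269), both under the fold threshold. Cyp2c67 was lower with Gl-2 than on Control by -0.47 (SE 0.12, adjusted p = 0.0217), and Cyp2c37 higher with simvastatin than on Control by 0.48 (SE 0.13, adjusted p = 0.0458). In these added comparisons with Control, 2 of the 38 genes passed the adjusted p alone with Gl-2 and 3 with simvastatin, against 2.86% and 1.54% of all genes.

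In kidney none of the 38 genes was DE in any of the 4 diet comparisons, and none passed the adjusted p alone. All genes gave 0.0408% for HCD against Control, 0.131% for Gl-1, 0.335% for Gl-2 and 0.14% for simvastatin against HCD. With the adjusted p alone the shares of all genes were 0.131%, 0.267%, 0.996% and 0.222%. At an unadjusted p under 0.05 there were 3, 4, 4 and 4 of the 38, against 4.47%, 4%, 8.97% and 6.19% of all genes. Nearest to a call were Cyp2j13 and Cyp2d40 with Gl-2. Cyp2j13 read 11.12, 11.24 and 11.18 on HCD and 10.81, 10.84 and 10.79 with Gl-2, a difference of -0.37 (SE 0.10, adjusted p = 0.0618), with no overlap. Cyp2d40 read 6.57, 6.81 and 6.78 on HCD and 6.94, 7.14 and 6.96 with Gl-2, higher by 0.29 (SE 0.08, adjusted p = 0.0637). Cyp2e1 kept to a range of group means from 12.92 to 12.99 in kidney, and Cyp2j5 to one from 12.65 to 12.67.

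In brain none of the 38 genes was DE either, with 0.0317%, 0.00906%, 0.0226% and 0% of all genes called in the same 4 comparisons, and 1, 5, 2 and 0 of the 38 at an unadjusted p under 0.05, against 6.44%, 5.55%, 6.65% and 5.53%. Cyp2e1 was the one gene that the F test over the diets called (adjusted p = 0.00609, against 0.371% of all genes). It read 5.75, 5.43 and 5.25 on Control, 5.30, 4.91 and 5.34 on HCD, 6.35, 5.54 and 5.29 with Gl-1, 5.83, 6.14 and 5.49 with Gl-2 and 4.84, 5.05 and 5.02 with simvastatin. The Gl-2 arrays were all above those of HCD, by 0.64 (SE 0.15, adjusted p = 0.124), and the simvastatin arrays overlapped HCD. Arrays of Gl-2 and HCD did not overlap, in either direction, for 3 of the 38 genes and for 14.6% of all genes. All 5 group means (4.97 to 5.82) were under the 30th percentile of brain, so these are differences of a low signal. The pooled SD within groups of Cyp2e1 was 0.330 in brain, 0.0578 in liver and 0.0334 in kidney. The fit takes the same spread in all tissues, so the brain F test and SE draw on the lower spread of liver and kidney. In pools A and B only the Gl-2 difference was 0.88 (adjusted p = 0.0335), and without HCD+Gl-2 C it was 0.80 (adjusted p = 0.0218). Both of these leave out HCD+Gl-2 C, the lowest array of its group. Of the 15 brain arrays left out in turn, only HCD+Gl-2 C gave a call among the 38 genes. In the same comparison 2 of 9 olfactory genes, Cdhr1 and Doc2g, were DE lower with Gl-2 (-0.86 and -0.90). The summed level of the 9 ranged from 11.01 to 11.05 on the HCD arrays and from 10.84 to 11.07 with Gl-2. Of the 9 genes of hepatocytes, the cells best known for Cyp2e1, none was DE there and Apob passed the adjusted p alone (0.41), and their summed level ranged from 12.30 to 12.53 on HCD and from 11.35 to 12.54 with Gl-2. This sum mostly follows Ttr, which read 11.06 to 12.70 over the brain arrays, while no other gene of the list read above 7.74 there. The part of either list in the Cyp2e1 values was not tested.

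**Figure D5:**
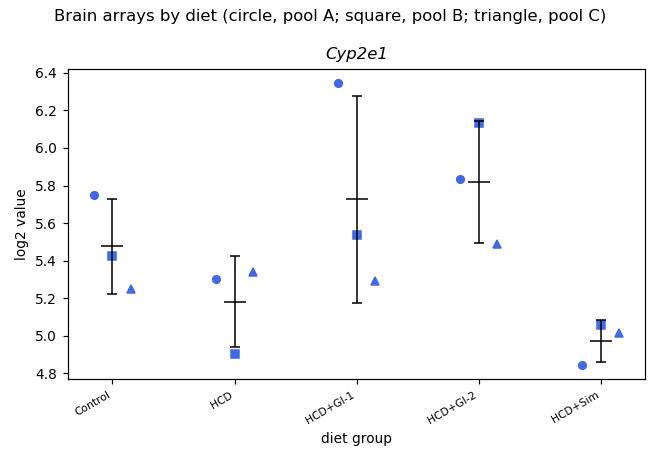
Log2 values of Cyp2e1 on the 15 brain arrays by diet, with the mean and SD of 3 arrays as a bar. The 3 HCD+Gl-2 arrays lie between 5.49 and 6.14, above those of HCD (4.91 to 5.34) and HCD+Sim (4.84 to 5.05), and all group means are under 5.88, the 30th percentile of brain.

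The liver and kidney responses of the 38 genes were compared directly as the difference of differences. No gene was called in any of the 4 diet comparisons, against 0.149%, 0.222%, 0.326% and 0.254% of all genes, with 12, 4, 9 and 4 of the 38 at an unadjusted p under 0.05, against 7.13%, 10.4%, 8.89% and 9.59%. For HCD against Control the liver minus kidney difference of Cyp2a22 was 1.3 (SE 0.32, adjusted p = 0.0669). It was called in pools A and B only, where it was 1.53 (adjusted p = 0.00163), with the pool letter as a block (adjusted p = 0.0229) and after renormalisation within tissues (adjusted p = 0.0396). For Gl-2 against HCD, that of Cyp2d40 was -0.44 (SE 0.11, adjusted p = 0.0635). So the kidney and liver responses were not shown to differ for Cyp2c38 either, whose kidney values were near 3 in every diet group.

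Genes that serve or regulate the P450 enzymes were counted beside them, from lists chosen with earlier results of these data known. Of all genes, 0.245% were DE on HCD against Control, 0.163% with Gl-1, 0.303% with Gl-2 and 0.258% with simvastatin against HCD, and 1.34%, 2.48%, 1.7% and 1.1% passed the adjusted p alone. In liver HCD against Control, 1 of 14 targets of CAR and PXR outside Cyp2 was DE, the exporter Abcc3 (1.07, SE 0.08, adjusted p = 4.73e-12), and 5 passed the adjusted p alone, all higher. They were Abcc3, Cyp3a11, Gstm3, Alas1 and Aldh1a7. The list's median was 0.32, against -0.01 over all genes. Against HCD, none of the 14 was DE with Gl-1 or Gl-2. Gstm3 (a glutathione transferase) was lower by -0.58 and -0.51 and Alas1 (the first enzyme of haem synthesis) higher by 0.42 and 0.51, all past the adjusted p alone. So did Abcc3, lower with Gl-1 by -0.36 (adjusted p = 0.00778), and Aldh1a7, lower with Gl-2 by -0.58 (adjusted p = 0.00869). Of 14 redox and haem genes none was DE in the 4 liver comparisons. Por and Alas1 are on this list and also on that of the CAR and PXR targets. Por was higher with Gl-2 by 0.54 (SE 0.10, adjusted p = 0.00154). Cyb5b, a cytochrome b5, was lower with Gl-2 by -0.45 (adjusted p = 0.00049) and with simvastatin by -0.39 (adjusted p = 0.00477). Of 22 regulators none was DE in these 4 comparisons. Against HCD, Cebpb was higher with Gl-1 (0.58) and Gl-2 (0.56), and CAR itself (Nr1i3) with Gl-2 (0.43, adjusted p = 0.0431), all past the adjusted p alone. Against Control, compared after values were seen, the regulator Onecut1 was DE higher with Gl-1 (0.87) and Gl-2 (0.86). So were Alas1 (0.73 and 0.83) and Abcc3 (0.71 and 1.07), and Por with Gl-2 (0.89). Of all genes 0.322% were DE there with Gl-1 and 0.584% with Gl-2. Of 4 epoxide hydrolases, Ephx1 passed the adjusted p alone on HCD (0.36, adjusted p = 0.0463).

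Several mouse Cyp2 genes differ between the sexes, so sex-biased liver genes were counted too, to be read against the same shares of all genes. Of 15 male-biased genes outside Cyp2, Moxd1 was DE lower on HCD (-2.34), and Moxd1 and Cyp7b1 were DE higher with Gl-1 (2.56 and 0.98), and Moxd1 alone with Gl-2 (2.24). Of 13 female-biased genes Cyp3a44 was DE higher and Cyp17a1 DE lower on HCD (1.21 and -1.14), and Acot3 was DE higher with simvastatin (0.89). None of the 9 hepatocyte, 12 pericentral or 12 periportal genes was DE in the 4 liver comparisons. On HCD against Control 4 of 12 squamous genes were DE lower (Krt4, Krt13, Sprr3 and Krtdap) and so was 1 of 12 muscle genes (Myh1), and on simvastatin against HCD 11 of 13 pancreas and 6 of 12 muscle genes were DE higher, in the arrays named above. The part of these lists in the Cyp2 values was not tested.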

How the data were processed

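Per the labels and the study's methods, total RNA of pooled tissue was hybridised to 45 Mouse Gene ST v1.0 arrays. The authors corrected background with RMA, quantile normalised with oligo, adjusted batches (not named) with ComBat, kept for each gene its most variable probe set by interquartile range, and deposited log2 values. ComBat may have moved differences between groups. Array number limits the precision.

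One limma 3.58.1 model (R 4.3.3) of 15 group means was fitted to the 45 arrays and moderated by empirical Bayes (7.34 prior and 30 residual degrees of freedom) with Benjamini-Hochberg adjustment over 22080 genes within each comparison. It recovered most of the largest changes set in simulated data, drawn with independent arrays and the same spread of a gene in all groups. The arrays here have neither property, so this checks the code and not the calls above. An exact permutation test, two-sided, cannot go below p = 0.1 at this group size. Summed list levels are log2 of summed linear values. Members and lists were chosen with earlier results of these data known. Named by rule were members DE between diets, the 5 largest tissue differences in each direction, and DE genes of the lists. Other genes given with values were chosen after these were seen. Promoters were aligned with Biopython 1.88, and figures drawn with matplotlib 3.10.9. Alternatives were fits by tissue or by compared groups, pools A and B, pool letter as block, leaving out dim genes (under the 30th percentile), renormalisation, robust moderation, the adjusted p alone and each array left out.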

Additional observations from a re-analysis of the deposited data

How the results depend on the processing

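Over the 6 arrays left out in turn, the count for liver against kidney was 27 to 30, for liver against brain 30 to 31 and for kidney against brain 11 to 13, and the adjusted p alone gave 20 for kidney against brain. The fit of liver arrays alone and that of the compared groups only gave 0 genes for HCD against Control, for Gl-1 and for Gl-2. For HCD against Control, pools A and B only gave 1 gene, the filter on dim genes 1 (Cyp2a22 was removed), and the adjusted p alone 4. Leaving out any 1 of the 6 arrays gave 1, and for Gl-2 gave 0 to 2. In brain, pools A and B only gave 1 call, and arrays left out 0 to 1. For liver against kidney responses, pools A and B only gave 2 (Cyp2a22 and Cyp2c65), renormalisation within tissues 1 and arrays left out 0 to 1 (Cyp2a22 without kidney Control C, liver Control C, or liver HCD+Sim B or C). Arrays left out gave 0 in kidney and for simvastatin. After seeing the data, pools A and C only gave 1 for HCD and 0 for each extract, and pools B and C only 0 for all 3. Leaving out liver Control A and B and HCD+Sim A and B together gave 3 for simvastatin (Cyp2a22, Cyp2c50 and Cyp2c65) and 4 for liver against kidney responses. It leaves 1 array, assumed to vary like the others, in each of these groups, and Cyp2a22 on HCD then lost its call (0.55, adjusted p = 0.389) while Cyp2c38 was at 1.42 (adjusted p = 0.000395), and 1.37 (adjusted p = 0.0155) for liver minus kidney. The cause was not tested.

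A shared pool letter is not stated to mark a shared batch, and the deviations of same-letter arrays did not all correlate over 0.1, so the letters were not taken as a pairing. In liver 12 of 30 same-letter pairs were over 0.1 (median 0.0728, highest 0.265), while other-letter pairs had a median of -0.0414 and a highest of 0.123. With the pool letter as a replicate block, the count for liver against kidney responses was 1 (Cyp2a22, 1.3, adjusted p = 0.0229), and no other call in the comparisons listed above was changed. No named difference changed sign in any alternative.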
